A study of Homo sapiens with 13 samples.

Results

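Chromosomes 17 and 22 held 10393 of the 136141 ChIP-seq peaks in the 7 deposited peak lists, or 7.63%. All peaks whose chromosome field names 1 of these 2 chromosomes were taken, and 14 peaks on unplaced contigs of chromosomes 17 and 22 were left out. Chromosomes 4 and 13, with 9173 peaks, served as a gene-poor reference. The chromosomes were chosen by their ratio of H3K27ac peak numbers in knockout (KO) and wild-type (WT) cells, so the H3K27ac contrast between genotypes is given as a description and supports nothing.

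The cells were of the established human embryonic stem cell line H1 (WA01). WT cells were compared with cells called 1-10 KO, named as 1 line, in which both copies of ZNF263 had been deleted with Cas9. A FLAG antibody was used in KO cells with ectopic expression of ZNF263-FLAG, and the peaks of that list are called FLAG peaks. The KO groups therefore rest on 1 line, and the tagged protein on an added copy of unstated level. Labels of the antibody libraries against endogenous ZNF263 from WT cells and of the inputs for both factor experiments name the same FLAG list. Separate endogenous peaks were not analysed here.

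H3K4me3 is a methyl mark that sits at promoters, above all those rich in CpG. H3K27ac is an acetyl mark of active promoters and enhancers, and H3K27me3 is the methyl mark that Polycomb complexes place on silent genes. In embryonic stem cells many promoters of developmental genes carry H3K4me3 and H3K27me3 together, a state called bivalent. ZNF263 is a C2H2 zinc finger protein with a KRAB domain, a class of DNA-binding factors known mostly as repressors, and its reported binding sequences are rich in G and A.

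Each of the 7 lists stands for 1 library. WT and KO were therefore not tested against each other, and no difference between them has a replicate check. Read counts are not part of the lists, so sequencing depth is unknown. A region just under the peak caller's threshold is missing from a list in the same way as a region without the mark. Intervals are 95% intervals for the counting of peaks only. Coordinates are hg19 and counted from 1. Without an hg19 genome or annotation, peaks are given with neither gene names nor sequence. Numbers of peaks were compared within a mark and not between marks, since the lowest score was 40 for H3K27ac and H3K27me3 and 50 for H3K4me3 and FLAG.

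The description of chromosomes 17 and 22 as gene-dense was checked first. RefSeq's table for GRCh38.p14 listed 1169 protein-coding genes on chromosome 17 and 451 on chromosome 22, against 769 on chromosome 4 and 338 on chromosome 13. Per Mb between the first and the last peak of any list, this came to 14.4 genes on chromosome 17 and 13.4 on chromosome 22. Chromosome 4 had 4.03 genes per Mb and chromosome 13 had 3.54. The order over the 22 autosomes put chromosomes 17 and 22 in places 2 and 3, after chromosome 19, and chromosomes 4 and 13 in places 20 and 21. H3K4me3 peaks were likewise dense on chromosomes 17 and 22. WT cells had 18.8 H3K4me3 peaks per Mb on chromosome 17 and 18.3 on chromosome 22, against 6.43 on chromosome 4 and 6.69 on chromosome 13. RefSeq promoters of 300 bases, 250 before and 50 after the gene start, had a median GC content of 62.3% on chromosomes 17 and 22 and 53.3% on chromosomes 4 and 13. The letters GGAGGAGG or their reverse complement CCTCCTCC were present in 11.01% (9.80 to 12.4) of these promoters on chromosomes 17 and 22, in 10.1% (9.01 to 11.3) on chromosomes 4 and 13, and in 10.9% of all promoters in the table. The GC content of promoters thus differed between the chromosome sets, while the share with this short motif was alike within its interval.

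The first comparison asked how many peaks of each mark the chromosomes held in WT and in KO cells. All 3 marks had fewer peaks in KO on both chromosomes. Chromosome 17 had 788 H3K27ac peaks in WT and 683 in KO, a ratio of 0.867 (0.782 to 0.960). Chromosome 22 had 316 in WT and 273 in KO, a ratio of 0.864 (0.735 to 1.016). Chromosome 4 went the other way, with 882 in WT and 986 in KO (ratio 1.118, 1.021 to 1.224), and chromosome 13 had 450 and 457 (1.016, 0.892 to 1.157). The remaining 20 autosomes together had 15882 and 16021, a ratio of 1.009. Among the 22 autosomes chromosome 19 had the lowest ratio at 0.838, chromosomes 22 and 17 came next, and chromosome 16 followed at 0.925. The bases covered by H3K27ac peaks differed less than their number, with 2.68 Mb in WT and 2.51 Mb in KO on chromosomes 17 and 22, a ratio of 0.937. KO peaks there were a little wider in the median, 2346 bp against 2196 bp.

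H3K4me3, the promoter mark, differed less and did not separate these chromosomes from the rest. On chromosome 17 it had 1523 peaks in WT and 1443 in KO (ratio 0.947), and on chromosome 22 it had 615 and 575 (0.935). Over both chromosomes the ratio was 0.944 (0.888 to 1.003), against 0.956 (0.896 to 1.020) on chromosomes 4 and 13 and 0.944 on the other 20 autosomes. In the order of the autosomes from the lowest H3K4me3 ratio, chromosome 17 stood in place 12 and chromosome 22 in place 5.

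H3K27me3 had 645 peaks in WT and 534 in KO on chromosome 17, a ratio of 0.828 (0.738 to 0.928), and 316 and 277 on chromosome 22, a ratio of 0.877 (0.746 to 1.030). These places were 3 and 14 of 22 from the lowest. On chromosomes 4 and 13 the ratio was 0.928 (0.838 to 1.028), and every autosome was below 1. With both H3K27me3 lists at equal genome-wide numbers by score, the ratio was 0.974 (0.884 to 1.072) on chromosomes 17 and 22 and 1.054 (0.948 to 1.171) on chromosomes 4 and 13. The covered bases again differed much less than the number, from 4.62 Mb in WT to 4.47 Mb in KO on chromosomes 17 and 22, a ratio of 0.967, next to 0.968 on chromosomes 4 and 13. Median width was 3251 bp in WT and 3842 bp in KO. Of the 811 KO H3K27me3 peaks on chromosomes 17 and 22, 49 (6.04%) spanned at least 2 WT peaks each, against 21 of 707 (2.97%) on chromosomes 4 and 13 and 4.49% in the complete list. Those 49 peaks overlapped 99 WT peaks. The reverse was also seen, since 37 WT peaks (3.85%) overlapped 75 KO peaks. The part of such joined peaks in the smaller number was not tested.

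**Figure D1:**
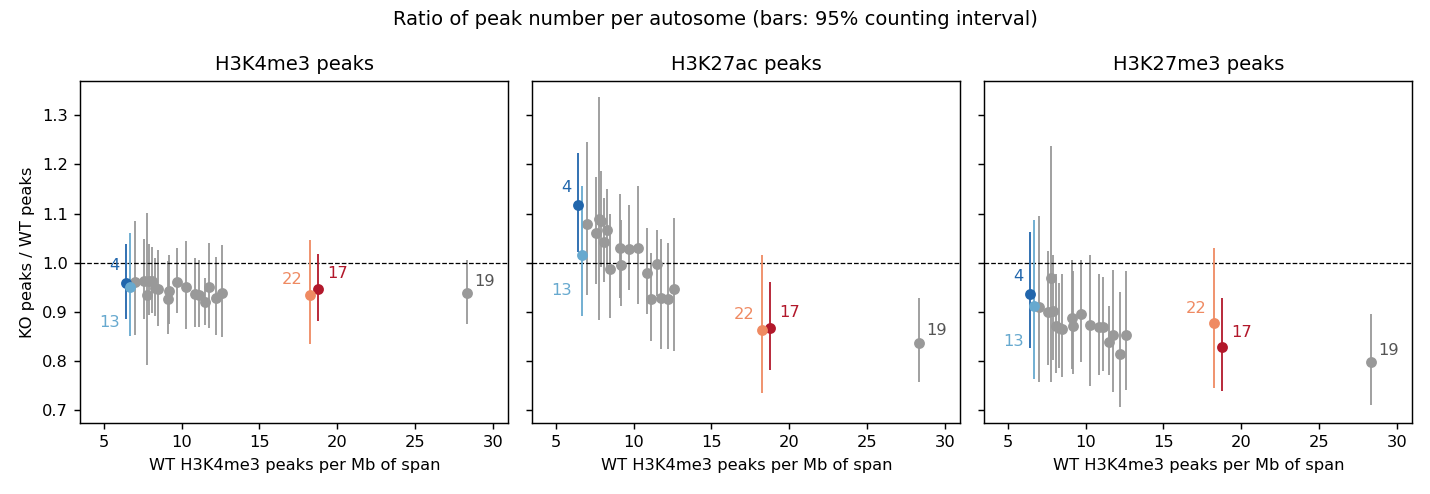
Ratio of KO to WT peak number (vertical axis) against WT H3K4me3 peaks per Mb of span (horizontal axis) for the 22 autosomes, 1 panel for each mark. Each point is an autosome with its 95% counting interval. Chromosomes 17 (0.867) and 22 (0.864) lie low in the H3K27ac panel beside chromosome 19 (0.838), while in the H3K4me3 panel the 22 ratios lie between 0.920 and 0.964.

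Across the 22 autosomes the H3K27ac ratio was lower where H3K4me3 peaks were denser (Pearson's r -0.86, Spearman's rho -0.88). Without chromosomes 17 and 22 the values over 20 autosomes were -0.81 and -0.84. The share of WT H3K27ac peaks that lay on H3K4me3 gave -0.87 and -0.81, and FLAG peaks per Mb gave -0.83 and -0.76. FLAG peaks per WT H3K4me3 peak gave weaker values, -0.55 and -0.50, and -0.39 and -0.36 without chromosomes 17 and 22. The points share 1 library for each list, and H3K4me3 density, FLAG density and gene density move together over the autosomes, so their parts in the ratio cannot be told apart here.

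The second comparison asked how many peaks of 1 genotype had no overlapping peak of the other. On chromosomes 17 and 22, 304 WT H3K27ac peaks were WT-only, or 27.5% (24.98 to 30.2), against 24.6% of the complete WT list. KO-only H3K27ac peaks numbered 160, or 16.7% (14.5 to 19.2), against 24.8% of the complete KO list. Chromosomes 4 and 13 had 323 WT-only (24.2%) and 434 KO-only peaks (30.1%). Both chromosomes showed the same pair of values, with 27.5% and 16.4% on chromosome 17 and 27.5% and 17.6% on chromosome 22. A low KO-only share is part of the contrast by which the chromosomes were chosen.

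Exclusive H3K27ac peaks were weak on the authors' score, which is used here only within a list. The median score of the 304 WT-only peaks was 61.7 against 211.9 for the 800 shared WT peaks, and that of the 160 KO-only peaks was 57.8 against 168.2. The upper 50% of the lists by score held 31 of the 304 WT-only and 15 of the 160 KO-only peaks. Most of them were far from a peak of the other genotype, with a median distance of 24.8 kb for WT-only peaks, and 12 of the 304 had a KO H3K27ac peak within 1 kb. Where a peak was shared 1 to 1, its width hardly differed, with a median log2 ratio of KO to WT width of 0.02 over 771 pairs.

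For H3K4me3, chromosomes 17 and 22 had 210 WT-only peaks (9.82%, 8.63 to 11.2; 12.3% in the complete list) and 79 KO-only peaks (3.92%, 3.15 to 4.85; 7.3% in the complete list). Both shares were lower than on chromosomes 4 and 13, by 5.34 points (Newcombe interval 3.29 to 7.42) for WT-only and by 7.07 points (5.41 to 8.79) for KO-only peaks. H3K4me3 peaks were thus more often called in both genotypes on the gene-dense chromosomes. WT-only H3K4me3 peaks there were weak, with a median score of 76.6. The median of all WT H3K4me3 peaks was 2510 on chromosomes 17 and 22 and 1034 on chromosomes 4 and 13. The part of peak strength in the shares was not tested. H3K27me3 had 207 WT-only peaks (21.5%; 21.6% in the complete list) and 69 KO-only peaks (8.51%; 11% in the complete list), against 17.5% and 10.5% on chromosomes 4 and 13. The differences were 4.09 points (0.30 to 7.79) and -1.96 points (-4.98 to 0.99).

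FLAG peaks were denser on chromosomes 17 and 22 than on chromosomes 4 and 13, per Mb and also per H3K4me3 peak. The chromosomes held 2405 FLAG peaks, 10.5% of that list, at 19.4 per Mb on chromosome 17 and 24.8 per Mb on chromosome 22. Chromosomes 4 and 13 had 4.44 and 4.51 per Mb. The density over both chromosomes was 20.97 per Mb against 4.47, a ratio of 4.70 (4.39 to 5.02). Set against the number of H3K4me3 peaks the ratio was 1.64 (1.53 to 1.76), so the sets differed much less per H3K4me3 peak than per Mb. Chromosome 22 had 1.36 FLAG peaks for each WT H3K4me3 peak, the highest of the 22 autosomes, and chromosome 17 had 1.03, in place 5. Chromosomes 4 and 13 had 0.691 and 0.674. Chromosome 19 had 31.6 FLAG peaks per Mb, the most of the autosomes, and 1.12 for each WT H3K4me3 peak.

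The excess over H3K4me3 appeared in 2 ways. A WT H3K4me3 peak held a FLAG peak more often, in 1059 of 2138 (49.5%, 47.4 to 51.7) on chromosomes 17 and 22 against 620 of 1866 (33.2%, 31.1 to 35.4) on chromosomes 4 and 13, with 39.3% in the complete list. WT H3K27ac peaks held one in 37.3% (34.5 to 40.2) against 18.8% (16.8 to 21.03), with 27.1% in the complete list. Chromosome 19 had higher shares, at 53.9% of WT H3K4me3 and 46.2% of WT H3K27ac peaks. Chromosome 16 had 41.4% of WT H3K27ac peaks. WT H3K27me3 peaks held one in 54.8% (51.7 to 58.0) against 48.3% (44.8 to 51.8), with 48.7% in the complete list. Chromosome 22 in addition had many FLAG peaks away from all marks. There 507 of 836 FLAG peaks (60.7%, 57.3 to 63.9) overlapped no WT histone peak, against 745 of 1569 (47.5%, 45.02 to 49.96) on chromosome 17 and 604 of 1279 (47.2%, 44.5 to 49.96) on chromosomes 4 and 13. WT H3K4me3 peaks held 35.2% of the FLAG peaks on chromosome 22 and 49.1% on chromosome 17, against 50% of the complete FLAG list. Over both chromosomes 411 FLAG peaks (17.1%) lay on WT H3K27ac and 605 (25.2%) on WT H3K27me3, against 20.7% and 28.1% of that list. On KO peaks the numbers were 341 for H3K27ac (14.2%, complete list 17.8%) and 535 for H3K27me3 (22.2%, complete list 25.2%). The unmarked FLAG peaks of chromosomes 17 and 22 were weaker and narrower, with a median score of 70.2 and a median width of 1790 bp, against 125.6 and 2537 bp for those on a mark.

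WT H3K4me3 peaks were then sorted by the other marks they overlapped. Of the 2138 on chromosomes 17 and 22, 771 carried H3K27ac only, 691 H3K27me3 only, 96 all 3 marks and 580 H3K4me3 alone. FLAG overlap followed the same order on both chromosome sets, lowest at H3K4me3 alone and highest at all 3 marks. The gap between the sets was widest at the weakly marked end. H3K4me3 alone held a FLAG peak in 34.1% on chromosomes 17 and 22 and in 11.6% on chromosomes 4 and 13, and peaks with H3K27ac only in 42.0% and 23.7%. Among peaks with H3K27me3 only the shares were 66.3% and 58.9%, and among those with all 3 marks 82.3% and 78.2%. Width moved with this, since the median H3K4me3-alone peak was 1892 bp wide on chromosomes 17 and 22 and 1552 bp on chromosomes 4 and 13, and its part in the FLAG overlap was not tested.

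**Figure D2:**
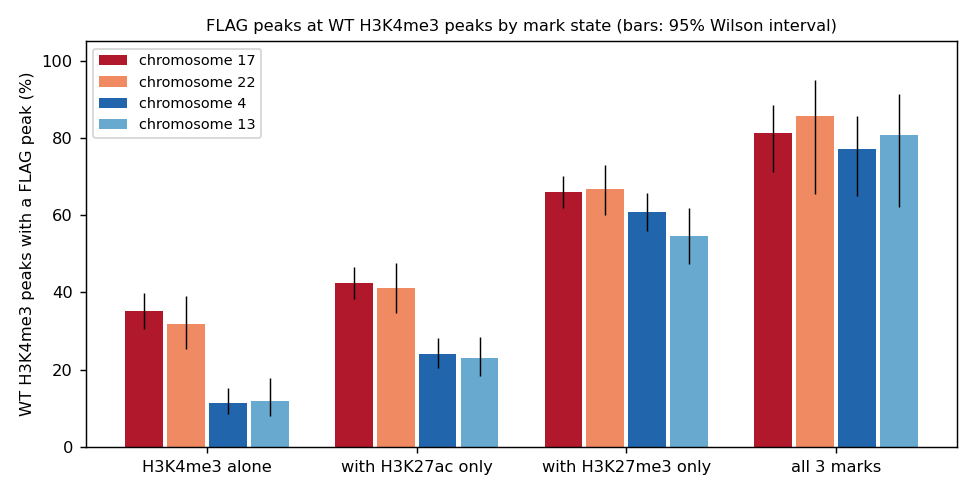
Share of WT H3K4me3 peaks that held a FLAG peak (vertical axis, percent) by the other WT marks at the peak (horizontal axis), with 1 bar for each of chromosomes 17, 22, 4 and 13 and its 95% Wilson interval. At H3K4me3 alone chromosomes 17 (35.1%) and 22 (31.8%) stand above chromosomes 4 (11.4%) and 13 (12.0%), and at all 3 marks the intervals of the 4 chromosomes overlap.

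The next comparison asked which class of H3K27ac peak was less frequent in KO. On chromosomes 17 and 22 H3K27ac lay mostly on H3K4me3, in 887 of 1104 WT peaks (80.3%), against 845 of 1332 (63.4%) on chromosomes 4 and 13. With both H3K4me3 and a FLAG peak, H3K27ac had 400 peaks in WT and 315 in KO, a ratio of 0.787 (0.680 to 0.913), the lowest of the 3 classes. Those on H3K4me3 without a FLAG peak numbered 487 and 440 (0.903, 0.794 to 1.028). Those off H3K4me3, where distal enhancers are found, numbered 217 and 201 (0.926, 0.765 to 1.122). Chromosome 17 had 0.800, 0.894 and 0.932 in these classes and chromosome 22 had 0.755, 0.927 and 0.913, so the FLAG class was lowest on each. It was also lowest over the complete lists, at 0.848, against 0.957 without FLAG and 1.21 off H3K4me3. Here each peak was classed by the H3K4me3 list of its own genotype. A setting added after seeing the data joined the H3K4me3 lists of both genotypes. Peaks off H3K4me3 on chromosomes 17 and 22 then numbered 202 in WT and 168 in KO (0.832, 0.678 to 1.02). Those on H3K4me3 had ratios of 0.808 with FLAG and 0.926 without. The FLAG class stayed lowest, while the order of the other classes was reversed.

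Chromosomes 4 and 13 had higher ratios in all 3 classes. With FLAG on H3K4me3 they had 246 WT and 224 KO peaks (0.911, 0.760 to 1.091), without FLAG 599 and 597 (0.997, 0.890 to 1.116), and off H3K4me3 487 and 622 (1.277, 1.134 to 1.438). Peaks off H3K4me3 and without FLAG numbered 205 in WT and 182 in KO on chromosomes 17 and 22, while in the complete lists that class was larger in KO (ratio 1.217, 1.172 to 1.264). Among peaks in the upper 50% of their lists by score, H3K27ac off H3K4me3 on chromosomes 17 and 22 numbered 47 in WT and 62 in KO. That ratio was 1.319 (0.905 to 1.923), against 0.926 (0.765 to 1.122) for all peaks of this class. Both intervals include 1, so no direction can be given for this class there.

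The mix of classes differed between the chromosome sets, and the ratios were also computed with the mix exchanged. For this, peaks off H3K4me3 were also split by FLAG overlap. The class off H3K4me3 with FLAG was small. It had 12 WT and 19 KO peaks on chromosomes 17 and 22, and 5 and 1 on chromosomes 4 and 13. When the classes of chromosomes 17 and 22 were weighted as on chromosomes 4 and 13, the ratio was 0.879 in place of 0.866. When those of chromosomes 4 and 13 were weighted as on chromosomes 17 and 22, it was 1.011 in place of 1.083.

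**Figure D3:**
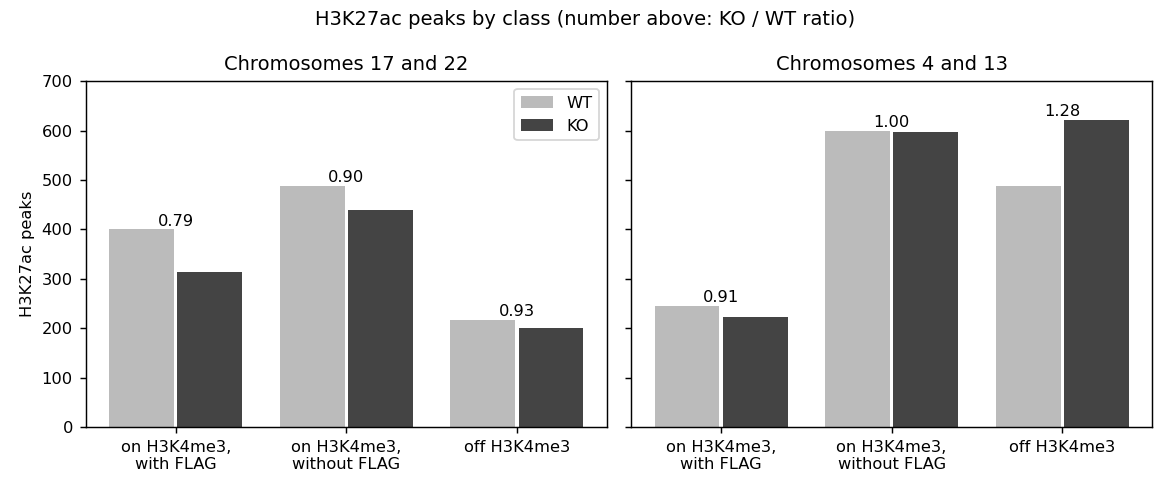
Number of H3K27ac peaks (vertical axis) in WT (light bars) and KO (dark bars) by overlap with H3K4me3 peaks of the same genotype and with FLAG peaks, for chromosomes 17 and 22 (left) and chromosomes 4 and 13 (right); the number above each pair is the KO to WT ratio. On chromosomes 17 and 22 the pair with H3K4me3 and FLAG has the lowest ratio (400 against 315), and on chromosomes 4 and 13 the pair off H3K4me3 is larger in KO (487 against 622).

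FLAG overlap also differed between the exclusive peaks. Of the 304 WT-only H3K27ac peaks on chromosomes 17 and 22, 98 held a FLAG peak (32.2%, 27.2 to 37.7), and of the 160 KO-only peaks 25 did (15.6%, 10.8 to 22.05), a difference of 16.6 points (8.47 to 23.9). Shared WT peaks held one in 39.2%. The shares for chromosomes 4 and 13 were 12.7% for the WT-only set and 3.69% for the KO-only set, 9.01 points apart (5.12 to 13.3), and 20.8% of shared peaks. The complete lists had 23.2% and 7.10%, so the gap on chromosomes 17 and 22 was close to that over the genome. On chromosome 17 WT-only peaks had 30.9% and KO-only peaks 11.6%, and on chromosome 22 the values were 35.6% and 25%, where the intervals (26.4 to 46.1 and 14.9 to 38.8) overlapped.

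The other marks at the 304 WT-only H3K27ac peaks were mostly the same in both genotypes. H3K4me3 was present in WT and KO at 170 of them (55.9%) and in neither at 109 (35.9%), while 23 had H3K4me3 in WT only. Shared WT H3K27ac peaks had H3K4me3 in both genotypes in 82.9%. On chromosomes 4 and 13, WT-only peaks had it in both genotypes in 32.2% and in neither in 59.4%. Shared WT peaks there had it in both in 65.1%. An H3K27me3 peak found in KO only lay at 2 of the 304 (0.66%), a share like that of shared WT H3K27ac peaks (5 of 800, 0.625%). At 40 of the 304 (13.2%, 9.81 to 17.4) WT cells had H3K27me3 already, against 49 of 800 (6.12%, 4.66 to 8.01) shared peaks. H3K27me3 had no KO peak at 16 of those 40 and at 19 of the 49 shared peaks, so these shares were alike. On chromosomes 4 and 13, WT H3K27me3 lay at 26 of 323 WT-only peaks (8.05%, 5.55 to 11.5). Among shared WT peaks there it lay at 61 of 1009 (6.05%, 4.735 to 7.69).

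Seen from the promoter mark, regions with all 3 marks were fewer in KO. They numbered 96 in WT (4.49%, 3.69 to 5.45, of H3K4me3 peaks) and 49 in KO (2.43%, 1.84 to 3.20) on chromosomes 17 and 22, and 87 (4.66%) and 67 (3.76%) on chromosomes 4 and 13. The complete lists had 1343 (4.69%) and 770 (2.84%). Of the 96, 35 (36.5%, 27.5 to 46.4) carried all 3 marks in KO as well, 25 carried H3K27me3 without H3K27ac, 20 H3K27ac without H3K27me3, 14 H3K4me3 alone and 2 had no KO H3K4me3 peak. On chromosomes 4 and 13, 48 of 87 (55.2%, 44.7 to 65.2) carried all 3 marks in KO, and in the complete list 42.2% did, which lies inside the interval for chromosomes 17 and 22. Of the 771 regions with H3K27ac only, 595 (77.2%) kept that state on chromosomes 17 and 22 and 117 (15.2%, 12.8 to 17.9) overlapped H3K4me3 alone in KO. The corresponding values on chromosomes 4 and 13 were 77.8% and 9.76% (7.82 to 12.1), and in the complete list 77.9% and 12.6%. H3K4me3-alone regions, in contrast, had no KO H3K4me3 peak in 21.03% (17.9 to 24.5) on chromosomes 17 and 22 and in 33.7% (29.7 to 37.9) on chromosomes 4 and 13, with 26.1% in the complete list. Bivalent regions, with H3K4me3 and H3K27me3, numbered 787 in WT and 691 in KO on chromosomes 17 and 22, and 9583 and 8338 in the complete lists.

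The last comparison asked where along the chromosomes H3K27ac peaks were fewer in KO. In windows of 1 Mb, 112 windows of chromosomes 17 and 22 held an H3K27ac peak. KO had fewer peaks than WT in 69 of them (61.6%), the same number in 22 and more in 21. On chromosomes 4 and 13 KO had fewer in 76 of 267 (28.5%), the same in 75 and more in 116. Chromosome 17 had 45 windows with fewer and 18 with more, and chromosome 22 had 24 and 3. Adding up the windows gave 187 fewer and 39 more peaks, a net of 148. The 17 windows with the largest decreases held 50% of the 187, so the difference was spread along both chromosomes and not confined to 1 region. Without the window with the largest decrease, a setting chosen after seeing the data, the ratio was 0.874 in place of 0.866. Windows on chromosomes 4 and 13 held fewer H3K27ac peaks, with a median of 4 in WT against 9. Among windows with at least 10 in WT, KO had fewer in 37 of 50 and more in 6 on chromosomes 17 and 22. On chromosomes 4 and 13 KO had fewer in 15 of 31 such windows and more in 9. This cut was made on the WT list alone, which by itself favours windows with fewer KO peaks on both chromosome sets. The counts are therefore a description only.

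**Figure D4:**
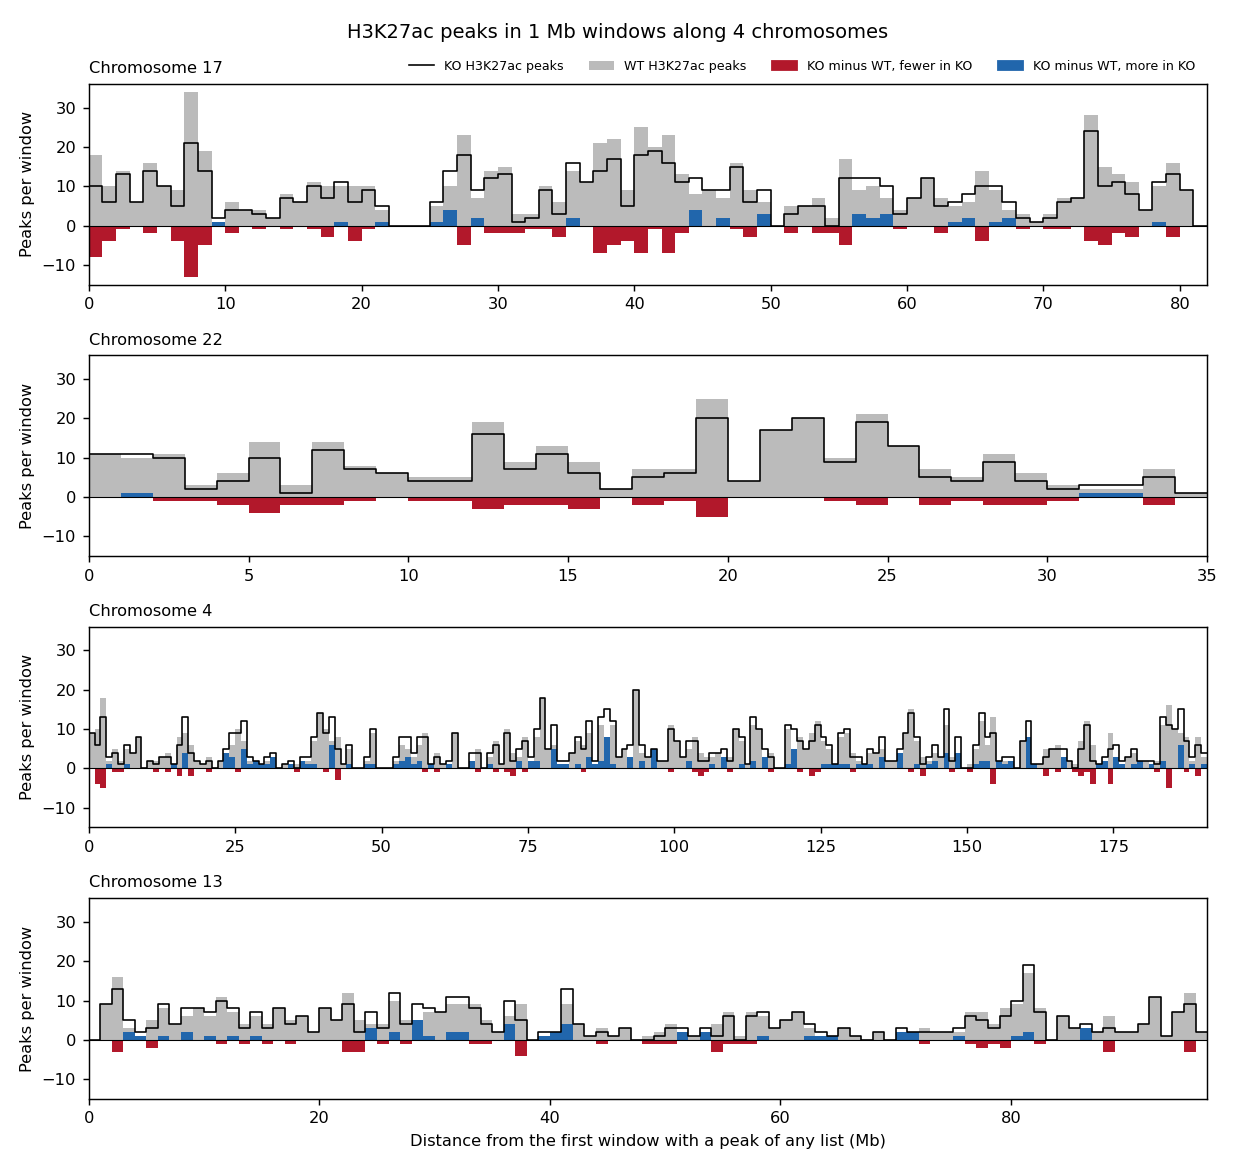
H3K27ac peaks per 1 Mb window (vertical axis) against distance from the first window with a peak (horizontal axis, Mb) on chromosomes 17, 22, 4 and 13; grey bars are WT, the black line is KO, and red or blue bars are KO minus WT below or above 0. Windows with fewer KO peaks lie along the whole of chromosomes 17 and 22, with the deepest (34 WT and 21 KO peaks) near the start of chromosome 17, while on chromosome 4 windows with more KO peaks are the more frequent (87 against 47).

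The window with the largest decrease spanned chromosome 17, 7000001 to 8000000, a stretch with 59 WT and 56 KO H3K4me3 peaks and 48 FLAG peaks. H3K27ac had 34 peaks there in WT and 21 in KO. All 13 WT-only H3K27ac peaks of the window lay on a WT H3K4me3 peak, 12 of them with H3K4me3 in KO too, and 7 held a FLAG peak. They were weak, with scores from 48.4 to 124.3, and 1 of the 13 was in the upper 50% of the list. No H3K27ac peak of the window was KO-only. At the end of the short arm, chromosome 17, 1 to 1000000, WT had 18 H3K27ac peaks and KO 10. Of the 11 WT-only peaks there 7 lay on H3K4me3 and 4 held a FLAG peak. The other windows with large decreases were at chromosome 17, 37000001 to 38000000 (21 in WT, 14 in KO), 40000001 to 41000000 (25 and 18) and 42000001 to 43000000 (23 and 16). Each of these 3 windows held from 34 to 41 FLAG peaks and from 38 to 43 WT H3K4me3 peaks. On chromosome 22 the largest decrease, at 36000001 to 37000000, was from 25 to 20 peaks in a window with 13 FLAG peaks.

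Increases were smaller than the largest decreases. Chromosome 17, 26000001 to 27000000, had 10 H3K27ac peaks in WT, 14 in KO and 10 FLAG peaks. Chromosome 17, 44000001 to 45000000, had 8, 12 and 9, and chromosome 17, 49000001 to 50000000, had 6, 9 and 6. The last was tied with 56000001 to 57000000 (9 in WT, 12 in KO, 16 FLAG peaks) and 58000001 to 59000000 (7, 10 and 9). Over 1 Mb windows, the decrease in H3K27ac peaks against FLAG peaks gave Pearson's r of 0.39 on chromosome 17 and -0.06 on chromosome 22. Against H3K4me3 peaks the values were 0.55 and 0.19. Single windows dense in FLAG peaks varied. The window at chromosome 17, 79000001 to 80000000, had 104 FLAG peaks, the most on the 2 chromosomes, with 16 H3K27ac peaks in WT and 13 in KO. On chromosome 22 the windows from 38000001 to 39000000 and from 39000001 to 40000000 held 57 and 61 FLAG peaks, and their H3K27ac peaks numbered 17 and 20 in both genotypes.

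Segments of 10 Mb showed the same unevenness. The first 10 Mb of chromosome 17 had 137 H3K27ac peaks in WT and 101 in KO, a ratio of 0.737 (0.570 to 0.953), and the segment from 30 to 40 Mb had 114 and 91 (0.798, 0.607 to 1.051). No difference in number was seen from 20 to 30 Mb, with 73 in each, and the segment from 60 to 70 Mb had 68 and 67. On chromosome 22 the segment from 20 to 30 Mb had 83 and 66 (0.795, 0.576 to 1.097), and the peaks before 20 Mb numbered 32 in each. All intervals of segments other than the first 10 Mb of chromosome 17 included 1. The ends of the long arms were rich in FLAG peaks, and their H3K27ac ratios lay within 0.02 of those of the rest. In the last 10 Mb of chromosome 17 there were 1.65 FLAG peaks for each WT H3K4me3 peak against 0.883 in the rest, and the H3K27ac ratios were 0.858 and 0.868. Chromosome 22 had 2.04 against 1.05, with ratios of 0.849 and 0.868.

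Windows of like H3K4me3 density were also compared. In windows with at least 21 WT H3K4me3 peaks the H3K27ac ratio was 0.835 (0.746 to 0.935) over 45 windows on chromosomes 17 and 22, and 0.940 (0.691 to 1.279) over 8 windows on chromosomes 4 and 13. Windows with 11 to 20 such peaks gave 0.921 (0.788 to 1.076) and 1.020 (0.895 to 1.163), and windows with 6 to 10 gave 0.882 (0.648 to 1.202) and 1.116 (0.984 to 1.267). Windows with at most 5 gave 0.897 (0.531 to 1.513) and 1.154 (1.000 to 1.331). These values describe the contrast by which the chromosomes were chosen.

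WT-only H3K27ac peaks stood alone among their neighbours about as often on both chromosome sets. Of the 304, 162 (53.3%) had a shared WT peak on both sides or a chromosome end, and 64 (21.1%) lay in 18 runs of at least 3 WT-only peaks in a row, against 54 of 323 (16.7%) in 17 runs on chromosomes 4 and 13. The longest runs had 6 peaks each. The run at chromosome 17, 64566 to 630633, spanned 566.1 kb, with 4 of the 6 peaks on H3K4me3 and none with a FLAG peak, and 1 KO H3K27ac peak lay within it. The run at chromosome 17, 40551134 to 40719911, spanned 168.8 kb, with 4 of 6 on H3K4me3 and 1 with a FLAG peak. On chromosome 22 a run of 5 peaks spanned 28171378 to 29026621, with 3 on H3K4me3, none with a FLAG peak and 3 KO H3K27ac peaks between them.

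Single regions showed how the strongest exclusive peaks looked. On chromosome 17 the 5 highest-scoring WT-only H3K27ac regions lay without exception on H3K4me3 present in both genotypes and carried no H3K27me3. The highest, at 47268608 to 47271686 (3079 bp, score 302), had no FLAG peak, and the nearest KO H3K27ac peak was 166 kb away. The next, at 49242590 to 49245026 (score 247), held a FLAG peak of score 153. The widest, at 79824949 to 79830346 (5398 bp, score 239), held a FLAG peak of score 167 and had a KO H3K27ac peak 5.01 kb away. The region at 1358054 to 1360130 (score 221) held a weak FLAG peak (score 70.2), and that at 42766057 to 42768187 (score 194) held none.

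On chromosome 22, 4 of the 5 strongest WT-only H3K27ac peaks likewise lay on H3K4me3 of both genotypes. The highest, at 23570947 to 23573648 (score 214), had no FLAG peak. The next, at 19108801 to 19111204 (score 189), held a FLAG peak of score 286, the strongest at any of these 10 regions. Those at 29278307 to 29280881 (score 184) and at 40765796 to 40767442 (score 171) held weak FLAG peaks of scores 57.3 and 66.5. The exception, at 17752890 to 17755022 (score 174.5), overlapped neither H3K4me3 nor FLAG, and a KO H3K27ac peak lay 3.35 kb away. In all, 6 of the 10 held a FLAG peak. Over all WT-only H3K27ac peaks of chromosomes 17 and 22 it was 98 of 304 (32.2%), against 314 of 800 shared WT peaks. Among WT-only peaks in the upper 50% by score it was 45.2% of 31 (29.2 to 62.2). So few regions picked by score cannot show a difference from the rest.

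Among all 160 KO-only H3K27ac peaks on chromosomes 17 and 22, 15.6% held a FLAG peak, and of the 6 named KO-only regions 1 did. On chromosome 17 they were at 21011928 to 21014472 (score 221), 26645113 to 26647862 (score 190) and 45142732 to 45145339 (score 188), all on H3K4me3 of both genotypes. On chromosome 22 the region at 19692513 to 19694221 (score 149) lay off H3K4me3 and held a FLAG peak of score 57.5. At 28524574 to 28526399 (score 144) H3K4me3 was present in KO only, and at 36069906 to 36072288 (score 115) it was present in both.

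The highest-scoring WT-only peaks of the methyl marks were mostly regions with H3K4me3 and H3K27me3 in WT and neither in KO. The absence of both marks in KO was not counted over all regions of that state, but absence of the H3K4me3 peak was rare among them. Of the 691 WT regions with H3K4me3 and H3K27me3 only, 32 (4.63%) had no KO H3K4me3 peak, with 5.34% in the complete list. For H3K4me3 alone it was 122 of 580 (21.03%). The 3 WT-only H3K4me3 peaks with the largest scores, on chromosome 22, 30900547 to 30902207 (score 778), 23358529 to 23360103 (score 737) and 38484235 to 38486129 (score 730), all carried H3K27me3 in WT and had neither mark in KO. Of the WT-only H3K27me3 peaks the strongest, at chromosome 22, 51167757 to 51173096 (score 1736), was of that kind too, with a KO H3K27me3 peak 0.646 kb from its edge. The H3K27me3 region at chromosome 17, 44025662 to 44027978 (score 347), likewise had H3K4me3 in WT and neither mark in KO. At chromosome 17, 2625809 to 2629855 (score 345), H3K27me3 was WT-only on H3K4me3 of both genotypes, with a FLAG peak of score 148. The 3 highest-scoring KO-only H3K4me3 peaks held no FLAG peak, while 11 of all 79 did. Their scores in the KO list were 196 (chromosome 17, 13044054 to 13046412), 161 (chromosome 22, 22495911 to 22497564) and 144 (chromosome 22, 33887338 to 33889404). The strongest KO-only H3K27me3 peak, at chromosome 17, 47860537 to 47864332 (score 182), lay on H3K4me3 of both genotypes and overlapped an H3K27ac peak in WT but none in KO. The others, at chromosome 17, 75242925 to 75245619 (score 166) and 61057896 to 61059993 (score 156), overlapped no H3K27ac peak.

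The 6 strongest FLAG peaks differed in the marks they carried. The highest, at chromosome 22, 45085350 to 45089330 (3981 bp, score 1706), overlapped no WT mark and an H3K4me3 peak in KO. The regions at chromosome 17, 80182546 to 80190290 (score 1324) and 77807690 to 77819765 (12076 bp, score 941), and at chromosome 22, 42677744 to 42681126 (score 1079.9), were bivalent in both genotypes without H3K27ac. At chromosome 17, 42295038 to 42300409 (score 1283), WT and KO alike carried H3K4me3 and H3K27ac. At chromosome 17, 27915015 to 27921988 (score 944), all 3 marks were present in WT and H3K27me3 was absent in KO. None of these 6 FLAG peaks overlapped an H3K27ac peak of 1 genotype only. In the complete FLAG list 20.7% overlapped a WT and 17.8% a KO H3K27ac peak. With so few peaks on H3K27ac, a set of 6 cannot show a difference from the rest.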

How the data were processed

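The data are 7 deposited peak lists from ChIP-seq of 13 samples in 12 groups, with 1 library for each list analysed. Bowtie2, Picard and hg19 are named per the submitters' processing notes, without versions. Per the file contents, peak names begin with MACS. Not given in the sources used here were its version, the input used and any pooling. The value of each peak is a score that the authors deposited from peak calling. Its scale is not given, so scores were used only to describe, rank and filter peaks within a list. Of the WT H3K4me3 peaks 42.9% have scores of 3100 or more, which do not rank peaks.

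The peaks of chromosomes 17 and 22 were compared with those of chromosomes 4 and 13 and of all 22 autosomes. Members, lists and rules were chosen with earlier results of these data known. Peaks were shared with at least 1 bp of overlap. Shares have Wilson and differences Newcombe intervals. Ratio intervals come from the Wilson interval of the KO share of WT and KO peaks. Windows of 1 Mb hold peaks by midpoint. Named regions are, by score, the 5 WT-only and 3 KO-only H3K27ac peaks of each chromosome, the 3 of each kind for H3K4me3 and H3K27me3, and the 6 highest FLAG peaks. Named windows are the 5 with the largest decreases and the 3 with the largest increases, and named runs the 3 longest. The windows of chromosome 22 and those richest in FLAG peaks were named after their values were seen. RefSeq's GRCh38.p14 table gave gene numbers and promoter composition only. It holds no promoters of 1 autosome, so shares over all promoters leave that autosome out.

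Overlap was tested on simulated data, with 0 wrong of 1104 peaks for WT against KO H3K27ac on chromosomes 17 and 22, and 0 wrong of 17537 planted cases. Python 3.11.15, numpy 2.4.6, pandas 2.3.3, scipy 1.17.1, statsmodels 0.14.6 and matplotlib 3.10.9 were used. Alternatives were other overlaps, window sizes, merged peaks, the upper 50% by score and lists of equal length. Leaving out 1 window and joining the H3K4me3 lists of both genotypes were added after seeing the data.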

Additional observations from a re-analysis of the deposited data

How the results depend on the processing

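Over 23 values and 82 alternative settings, 56 moved by less than the counting interval and 26 by more. No paired analysis was possible because each list stands for 1 library and the histone labels give no replicate numbers. Of 28 ratios for chromosomes 17 and 22, 27 were below 1. The exception was H3K27ac off H3K4me3 in the upper 50% by score, at 1.32, where chromosomes 4 and 13 had 1.49. The count of 27 supports nothing, since the H3K27ac ratios in it belong to the contrast by which the chromosomes were chosen. The H3K4me3 and H3K27me3 ratios were below 1 on all 22 autosomes at the main setting.

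With both lists of a mark at equal genome-wide numbers, the H3K27me3 ratio was 0.974 on chromosomes 17 and 22 and 1.05 on chromosomes 4 and 13, and the H3K4me3 ratio of the latter was 1.02. WT-only and KO-only shares on chromosomes 17 and 22 were then 7.39% and 5.00% for H3K4me3 and 14.5% and 12.0% for H3K27me3. Peaks in the upper 50% by score, set against the complete other list, gave 5.27% WT-only and 2.84% KO-only for H3K27ac, 0.611% and 0% for H3K27me3, and 0% and 0% for H3K4me3. WT-only H3K27me3 was 18.7% when a gap of at most 1 kb still made a peak shared.

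The FLAG density ratio was 1.64 per WT H3K4me3 peak and 5.10 with the upper 50% of FLAG peaks. With those FLAG peaks, 23.4% of WT-only and 8.12% of KO-only H3K27ac peaks held one. Among exclusive H3K27ac peaks of the upper 50% the shares were 45.2% of 31 and 6.67% of 15. Windows with fewer KO peaks made up 50.2% at 0.5 Mb, 74.1% at 2 Mb and 47.3% in the upper 50% by score (22.8% on chromosomes 4 and 13). Beyond the settings themselves, the causes were not tested. Depth is unknown and limits every exclusive call.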
